A study of Mus musculus with 12 samples.

Results

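Intact spinal cord was represented by the 4 libraries titled as uninjured, out of 12 RNA-seq libraries of mouse cord, and all 4 were used. They were chosen by that label alone, with no measured value, and each is named here by the number in its title: 376, 377, 385 and 467. The other 8 libraries came from lesions taken 14 days after a dorsal hemisection at high thoracic level, 4 from animals given tamoxifen and 4 given its solvent, and are not described here. All animals were adults over 8 weeks of age on a C57bl/6J background with the genotype Glast-CreERT2 x R26R-YFP x Rasless. In this line a tamoxifen-inducible Cre is driven by the promoter of Glast (Slc1a3), with a YFP reporter, and the name of the third element refers to loss of Ras. Which Ras alleles it holds is not given in the labels. The labels of the uninjured animals give an injection of vehicle and no injury, and a time of 14 days whose starting point is not stated. The tissue was a spinal cord segment whose level was not given for the single animals, and the number of animals behind each library was not stated beyond the group size of 4.

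The cord is a mixed tissue, so bulk RNA-seq adds the transcripts of every cell type in the dissected piece. Oligodendrocytes wrap central axons in myelin, astrocytes clear transmitter and buffer ions, and neurons of the grey matter relay motor, sensory and autonomic signals. Around the cord lie the meninges, with fibroblasts, barrier cells and border macrophages, and the spinal roots, whose axons are wrapped by Schwann cells. Beyond them lie bone, fat and back muscle, which are not part of the cord.

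Library totals ran from 8868865 counts in library 376 to 11686386 in library 377. Levels of genes are given in FPKM, the authors' values per kilobase of transcript after scaling for library depth, since only these can be compared between genes of different length. The spread of 1 gene among libraries is given in CPM, counts scaled to a common library total. Errors are SD over the 4 libraries. With 1 group and no contrast, no test was made. No pair of libraries agreed within sampling noise: the chi-square per degree of freedom between libraries was 3.11 to 8.41, and the correlation across genes was 0.971 to 0.992.

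A mean of at least 1 FPKM was reached by 15398 of 37818 genes. Of these, 8179 reached 10 FPKM, 715 reached 100 FPKM and 22 reached 1000 FPKM, and the median of the detected genes was 11.1 FPKM. Protein-coding nuclear genes other than those of ribosomal proteins held 77.0% ± 1.58 of the summed FPKM. Mitochondrial transcripts held 7.61% ± 0.38 and pseudogenes 10.5% ± 0.056. Counts gave a different split, with 94.3% in those protein-coding genes, 2.04% in mitochondrial transcripts and 2.03% in pseudogenes. The 50 highest genes held 18.1% of the summed FPKM in library 376, 14.2% in 377, 14.2% in 385 and 15.4% in 467. The share of library 376 includes its highest entry, U6, a level with hardly any counts behind it that is described below. On raw counts the share was level, from 9.98% in 385 to 10.52% in 467, with 10.47% in 376. Each library's own 50 highest by FPKM shared 46 to 49 genes with the 50 of highest mean.

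Myelin, respiratory chain, iron storage and lipid carrier transcripts led the order of levels. Leaving out genes under 200 counts over the 4 libraries, the highest was mt-Co1, a subunit of cytochrome c oxidase, with 4703, 3930, 3949 and 4234 FPKM in libraries 376, 377, 385 and 467. Mbp, the basic protein that compacts myelin, followed with 3969, 3375, 3289 and 3940 FPKM. Library 376 was the highest of the 4 for both genes, and mt-Co1 was above Mbp in all 4 libraries. Fth1, the heavy chain of ferritin, stood at 2579 ± 283 FPKM and overlapped mt-Cytb (2592 ± 173 FPKM), being the higher in 2 of 4 libraries.

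Apoe, the lipid carrier made by astrocytes, had 1409 ± 155 FPKM and could not be ordered against mt-Nd6 (1352 ± 88.4) or Mobp, a small myelin protein (1323 ± 174). Snap25, a protein of the neuronal vesicle fusion machinery, had 939 ± 54.1 FPKM. Sparcl1, a matrix protein secreted by astrocytes, stood at 848 ± 45.9 FPKM, Gfap, the astrocytic intermediate filament, at 710 ± 52.6 and Aldoc, an aldolase of astrocytes, at 645 ± 38.7. Atp5b of the mitochondrial ATP synthase (865 ± 88.8), the protease inhibitor Cst3 (734 ± 85.7) and Plekhb1 (638 ± 16.3) also stood among the first 25, with mt-Nd2, mt-Nd5, both mitochondrial ribosomal RNAs and 2 predicted genes.

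**Figure D1:**
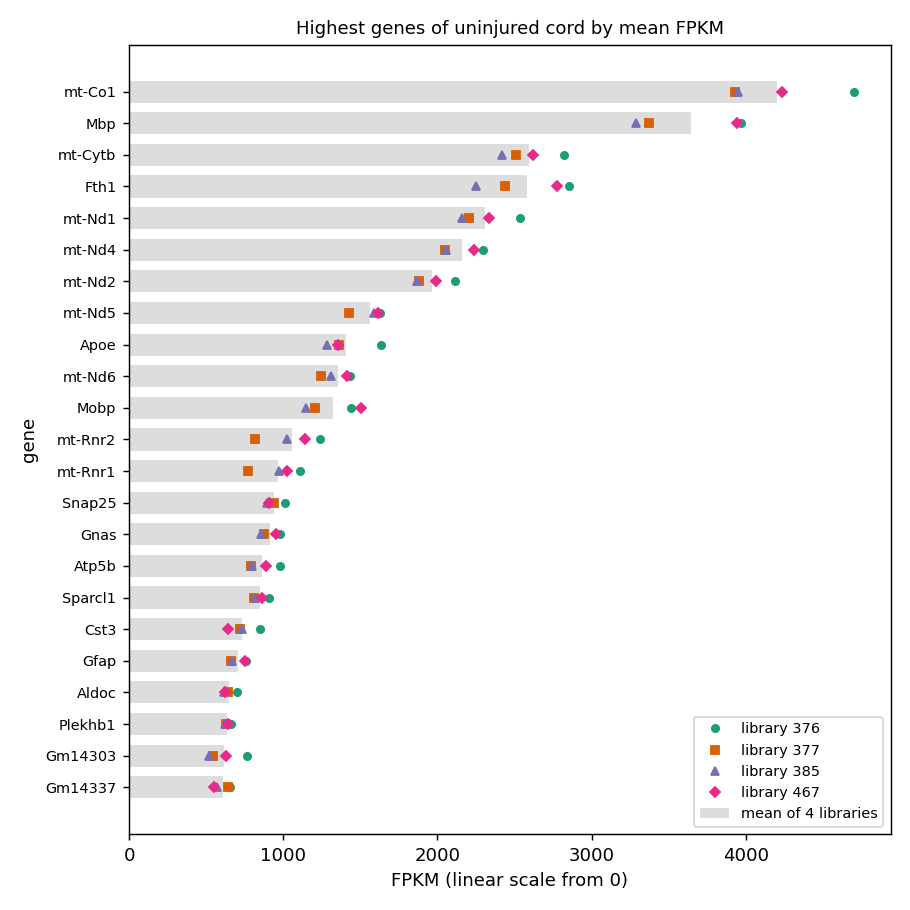
Horizontal bars give the mean FPKM of 23 of the 25 highest genes with at least 200 counts in total, and each symbol is 1 of the 4 uninjured libraries, on a linear axis from 0. Library 376 lies to the right of the other 3 for mt-Co1 (4703 FPKM) and, close to library 467, for Mbp (3969 and 3940 FPKM).

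The deposited tables differed for some genes near the top of the order. In the FPKM table mt-Co2, another cytochrome c oxidase subunit, exceeded mt-Co1 with a mean of 4327 FPKM, but its counts were 25, 53, 44 and 54. The same held for mt-Co3 (3588 FPKM, 29 to 37 counts) and mt-Atp8 (3167 FPKM, 0 to 4 counts), 3 genes named after their values were seen. Of the 50 genes of highest mean FPKM, 10 had under 200 counts in total. An entry named U6, a spliceosomal RNA, was listed at 14149 FPKM in library 376 on 1 count and at 0 in the other 3. Small RNA genes held 3.26% of the summed FPKM in library 376 against 0.27% to 0.60% in the other 3. Levels with few counts behind them were therefore kept out of the order given above. Among 8025 genes of at least 10 FPKM with an exon length in the reference, 297 (3.70%) had fewer than 0.2 of the counts that their FPKM and length would give, relative to the typical protein-coding gene. Gapdh, the glycolytic enzyme, was 1 of the 297, at 20.6 ± 1.80 FPKM and 4.55 to 8.38 CPM. It had 0.13 of the counts expected in this way, so its level is uncertain. Gnas (916 FPKM) had only 121 to 142 CPM.

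Lists of neuronal, astrocyte and oligodendrocyte genes had the highest medians among the cell types. The median member had 231 FPKM in the list of neurons in general, 188 in the axonal cytoskeleton list, 128 in the astrocyte list and 122 in the oligodendrocyte list, beside 11.1 over all detected genes. Every member with a value in these 4 lists was at 10 FPKM or more: 19, 13, 31 and 26 genes. The endothelial list had a median of 15.4 FPKM, microglia 11.5, oligodendrocyte precursors 11.4, meninges 8.89, ependyma 4.31, smooth muscle 4.04, Schwann cells 3.72 and pericytes 3.45. Neighbours in this order were not fixed: the oligodendrocyte median was the higher in library 376 (130.7 against 130.6 FPKM for astrocytes), and the ependymal median was under that of smooth muscle in 376, 377 and 385. A median also depends on which members were listed. In bulk tissue, fewer cells of a type and less RNA per cell cannot be told apart.

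**Figure D2:**
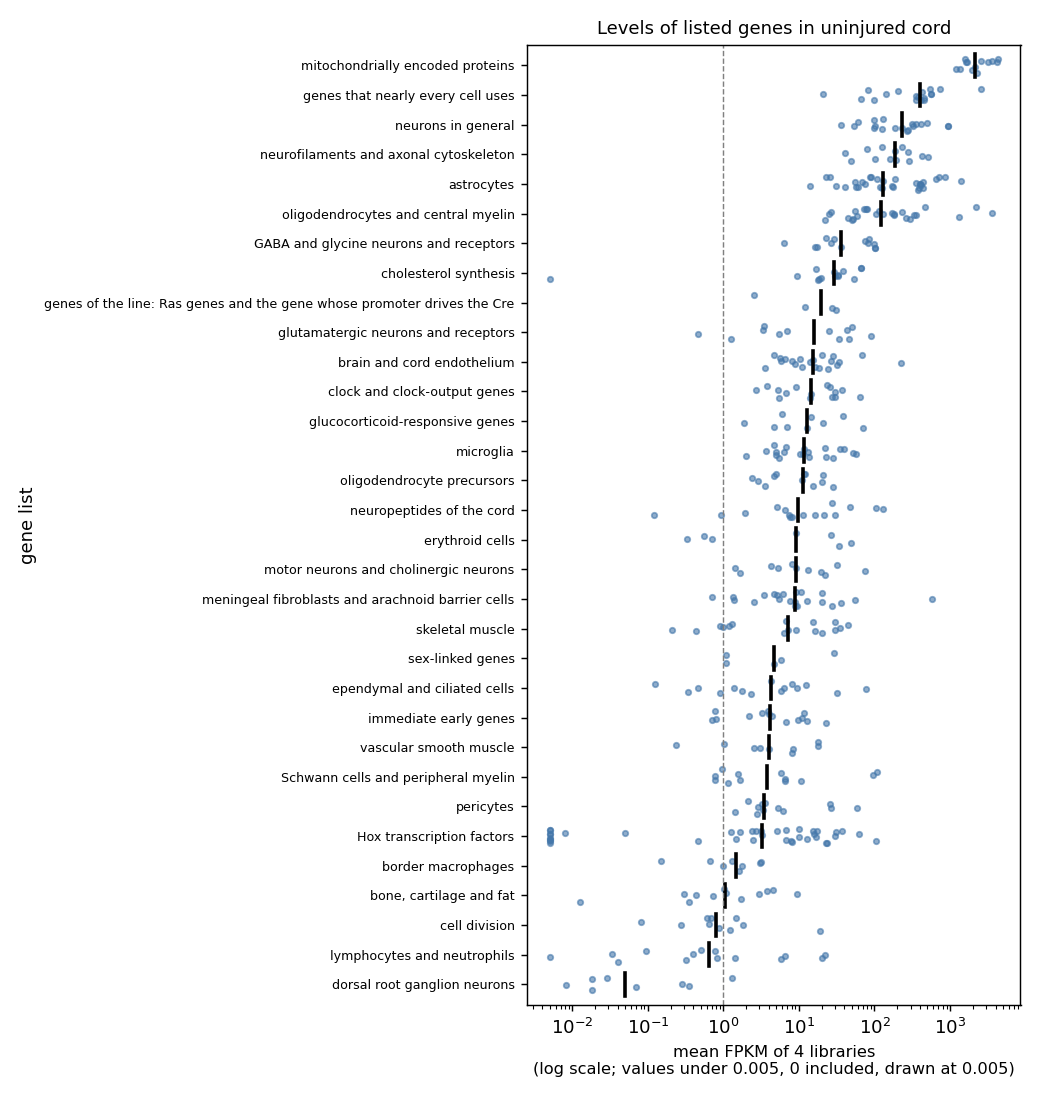
Each point is the mean FPKM of 1 listed gene over the 4 uninjured libraries, on a log axis, and each black bar is the median of its list. The dashed line marks 1 FPKM, and genes at or near 0 are drawn at the left edge; the axonal, neuronal, astrocyte and oligodendrocyte lists lie wholly to the right of the line.

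Oligodendrocyte transcripts covered the whole course from fate to mature myelin. Olig2 and Sox10, transcription factors of the lineage, stood at 24.9 ± 1.55 and 51.5 ± 3.46 FPKM. The enzyme Cnp had 354 ± 37.1 FPKM, and Mag, an adhesion protein facing the axon, had 258 ± 13.8. Mog, on the outer face of myelin, had 131, 117, 112 and 161 FPKM, highest in library 467. The lowest member was Opalin, with 21.9, 21.0, 19.2 and 27.3 FPKM, also highest in 467. Trf, the iron carrier transferrin, was listed at 470 ± 43.3 FPKM but had only 9.58 to 13.2 CPM, so its place is uncertain. Of the 12 precursor genes, 7 reached 10 FPKM, led by Lhfpl3 (28.0 ± 0.77), Enpp6, an enzyme of newly formed oligodendrocytes (20.9 ± 4.63), Ptprz1 (20.1 ± 1.94) and C1ql1 (15.4 ± 0.45). Pdgfra, the growth factor receptor that marks precursors, had 11.1 ± 0.57 FPKM. The most variable precursor gene was Gpr17, a receptor of differentiating precursors, with 61.8, 40.2, 57.3 and 100 CPM, highest in 467. Bmp4 was the lowest of the list at 2.40 ± 0.84 FPKM.

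Astrocyte genes were evenly expressed among the 4 cords, with a median SD of 0.091 on the log2 CPM scale. Slc1a2, the main glutamate transporter, stood at 186 ± 34.0 FPKM, which was 6.10 ± 1.13 times the level of Slc1a3. Slc1a3, the gene whose promoter drives the Cre of the line, had 34.1, 28.0, 30.6 and 29.8 FPKM. The water channel Aqp4 had 129, 119, 118 and 146 FPKM, highest in 467, and the gap junction protein Gjb6 varied most in the list, with 130, 131, 125 and 93.5 CPM, lowest in 467. The lowest member was Sox9, a transcription factor, at 14.0 ± 1.41 FPKM. Ependymal cells line the central canal and carry motile cilia. Vim, an intermediate filament that several cell types share, led that list at 76.1 ± 18.5 FPKM, Foxj1, the regulator of motile cilia, had 12.3 ± 0.77, and the axonemal genes Hydin and Spag17 stood at 0.34 and 0.12. Fam183b varied most, at 1.48, 1.63, 1.75 and 3.35 CPM.

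Microglial genes were all above 1 FPKM. Ctss, a lysosomal protease, stood at 52.4 ± 3.83 FPKM. The complement genes C1qa and C1qb had 39.3 ± 5.87 and 34.6 ± 5.67. The resting-state receptors P2ry12 and Cx3cr1 had 11.4 ± 0.85 and 11.7 ± 0.99 FPKM, and Tmem119 had 10.5 ± 1.20. Fcrls was the lowest at 1.97 ± 1.43 FPKM and the most variable, with 4.10, 1.97, 2.80 and 8.11 CPM, highest in 467. Genes of border macrophages, which sit in the meninges and around vessels, were lower: their median was 1.46 FPKM and none of 8 reached 10. Lymphocyte and neutrophil genes had a median of 0.64 FPKM, and Ms4a1, a B-cell surface protein, had no count in any library. A count of 0 in all 4 libraries allows up to 3 counts, or 0.0693 CPM in their 43313264 counts, for counting error alone.

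Neuronal genes were the most even of the main lists. Below Snap25 came the vesicle proteins Syp and Vamp1, the latter at 414 ± 17.7 FPKM, and the lowest was the RNA-binding protein Elavl4 (36.5 ± 2.31). Rbfox3, the nuclear protein NeuN, had 99.7, 98.8, 100 and 103 FPKM. Neurofilaments, the cytoskeleton of thick axons, followed a fixed order in each of the 4 libraries. Nefm stood at 508 ± 29.5 FPKM, 1.19 ± 0.051 times Nefl, and Nefl was 1.86 ± 0.063 times Nefh. The lowest axonal gene was Prph, the intermediate filament of motor and sensory neurons, at 34.9, 47.4, 40.8 and 38.5 FPKM.

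Genes of inhibitory transmission stood above those of excitatory transmission. Slc32a1, the vesicular transporter for GABA and glycine, had 101.5 ± 5.84 FPKM, and Slc17a6, the vesicular glutamate transporter VGLUT2, had 50.6 ± 1.66. The ratio of the 2 was 2.09, 1.98, 2.04 and 1.91 in the 4 libraries. The other glutamate transporters were low: Slc17a7 had 1.26 ± 0.62 FPKM and varied most in its list, and Slc17a8 had 0.45 ± 0.16. The uptake transporter for glycine, Slc6a5, had 75.6 ± 3.86 FPKM, and the glycine receptor genes Glrb (99.6 ± 4.16) and Glra1 (81.1 ± 8.76) were nearer the level of Slc32a1. Gad1, which makes GABA, stood at 85.5 ± 8.59 FPKM, 3.76 ± 0.42 times Gad2. The lowest inhibitory gene was Glra3, at 6.32 ± 0.71 FPKM. Of the excitatory receptors, Grin1, the obligatory NMDA receptor subunit, was the highest, and Gria4 had 46.2 ± 0.38 FPKM and Gria1 43.0 ± 2.53.

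Cholinergic genes, which include those of motor neurons, were at a median of 9.02 FPKM. Ache, the enzyme that breaks down acetylcholine, led with 74.7 ± 1.04. Chat, which makes acetylcholine, had 38.1, 47.9, 47.2 and 41.5 CPM, and Slc5a7, which takes up choline, had 126, 155, 144 and 120. Libraries 377 and 385 were thus the higher pair for both genes, and 377 was the highest library for 9 of 11 members, beside 21.8% of all genes read for spread. Calca, the CGRP peptide of motor and sensory neurons, had 29.4, 48.5, 30.0 and 26.1 CPM. Uts2d, another peptide of motor neurons, varied most, at 5.24, 5.22, 4.72 and 1.59 CPM. The lowest member, Mnx1, a motor neuron transcription factor, had 1.43 ± 0.18 FPKM. Among neuropeptides, Sst (130 ± 18.4 FPKM) exceeded Penk (105 ± 11.2) in each library, at 1.23 ± 0.060 times its level. Tac2 (48.1 ± 8.95) and Cck (29.9 ± 4.09) followed, and Nppb was the lowest at 0.12 FPKM. Genes of dorsal root ganglion neurons had a median of 0.049 FPKM, and 1 of 8, the ATP receptor P2rx3 (1.29 ± 0.26), reached 1 FPKM.

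Endothelial genes were led by Bsg, a membrane glycoprotein also made by other cells (225 ± 21.9 FPKM), and Slc2a1, the glucose transporter of barrier vessels (68.0 ± 6.75). The tight junction protein Cldn5 had 34.3, 26.3, 29.7 and 22.1 FPKM. The lowest member was Kdr, a VEGF receptor (3.60 ± 0.45), and the most variable was Vwf, the von Willebrand factor of larger vessels, with 102, 93.2, 92.3 and 23.1 CPM. Library 467 was the lowest for 17 of 21 endothelial genes, beside 28.3% of all 15797 genes read for spread. The median ratio of 467 to the mean of the other 3 was 0.80 in this list, so Vwf (0.24) was its extreme member. Pericyte genes were led by Vtn, vitronectin, at 77.8, 68.8, 60.8 and 27.1 FPKM, again lowest in 467, while Rgs5 had 28.8, 24.8, 27.0 and 26.0 and did not set 467 apart. The lowest pericyte gene was Anpep (1.40 ± 0.59). Smooth muscle genes had Acta2 at 9.94, 7.77, 9.43 and 4.84 FPKM and Tagln at 10.1, 9.02, 9.88 and 4.90, with 467 the lowest for both. Tpm2, the highest member, had 17.3, 71.1, 27.3 and 14.0 CPM, and Des, the most variable, 5.01, 27.0, 7.60 and 1.41. Both were also lowest in 467, but highest in 377, which was highest for skeletal muscle too. The smooth muscle median was 4.45, 7.65, 4.16 and 3.12 FPKM in the 4 libraries.

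The meninges were marked by Ptgds, a prostaglandin synthase that arachnoid cells share with oligodendrocytes, with 839, 711, 538 and 224 FPKM. It was the 1 meningeal gene among the 500 highest. Igf2, a growth factor of meningeal fibroblasts, had 99.4, 64.8, 51.5 and 7.16 FPKM. Igfbp2, a binding protein for such factors, had 49.4, 42.2, 39.5 and 12.8. The small proteoglycan Dcn had 36.2, 36.4, 29.3 and 8.19. For these 4 genes libraries 376, 377 and 385 lay above library 467 with no overlap. Slc47a1 was the lowest, at 0.71 ± 0.77 FPKM. Among Schwann cell genes Pmp22, which central cells also make, had 107 ± 19.3 FPKM.

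Hox genes carry position along the body, with low paralog numbers toward the head and high numbers toward the tail. Of 39 Hox genes, 27 were at 1 FPKM or more and 12 at 10 or more. The highest were Hoxb8 (106 ± 10.8 FPKM), Hoxc8 (62.0 ± 17.2), Hoxa7 (37.2 ± 3.54) and Hoxb6 (30.9 ± 3.80). All 15 genes of paralogs 4 to 8 were detected, and none of the 9 genes of paralogs 11 to 13 was. Hoxd13 had a count in library 467 alone (0.088 CPM). Hoxa11, Hoxa13, Hoxb13, Hoxc11, Hoxc12, Hoxc13, Hoxd10, Hoxd11 and Hoxd12 had no count in any library.

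The remaining lists were read for the state of the tissue. Immediate early genes, which respond within minutes to activity or handling, were led by Jun (23.0 ± 1.83), Egr1 (12.7 ± 0.94), Dusp1 (11.5 ± 1.74) and Fos (10.8 ± 1.61). Clock genes were led by Tef (64.4 ± 0.71), Dbp (36.9 ± 4.40), Nr1d2 (29.8 ± 1.32) and Nr1d1 (29.7 ± 3.40). Per1 varied from 51.6 to 73.5 CPM, and Gm129 varied most among clock genes, with 8.19, 13.3, 9.61 and 12.3 CPM. Glucocorticoid-responsive genes had Tsc22d3 at 71.2 ± 6.25 FPKM and Sgk1 at 38.4 ± 7.10, and Plin4 varied most, with 14.6, 19.4, 13.4 and 6.79 CPM. Genes of cell division had a median of 0.79 FPKM. In that list Pcna, also used in DNA repair, had 19.1 ± 2.64 and the mitotic cyclin Ccnb1 0.080. Among Ras genes, those given here were Hras1 (11.98 ± 2.67 FPKM) and Nras (2.50 ± 0.60). Whether the line alters either of them is not in the labels.

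Most genes differed little among the 4 cords. Among 15797 genes with a mean of at least 10 counts, the median SD of log2 CPM was 0.118, where counting error alone gives a median of 0.088, and 73.2% of genes had an SD under 0.2. An SD over 1 was found for 231 genes, or 1.46% of those read. The common biological coefficient of variation was 0.114, and 0.0973 without 21 skeletal muscle and sex-linked genes. It was 0.0814 without library 467, and 108 genes then had an SD over 1. No oligodendrocyte (26), astrocyte (31), neuron (20), axonal (13), inhibitory (13), excitatory (12) or microglial (20) gene was among the 231. By contrast 15 of 22 meningeal genes, 4 of 6 border macrophage genes and 3 of 12 Schwann cell genes were. Each of these genes would also pass the filter without its highest library. Of the 16 skeletal muscle genes past the filter 15 would, and 13 of those had an SD over 1. In other lists a high SD is partly fixed by the filter, since 3 of 6 erythroid, 1 of 5 neutrophil and 4 of 5 sex-linked genes passed it only through the library where they were high. No count is drawn from those lists.

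**Figure D3:**
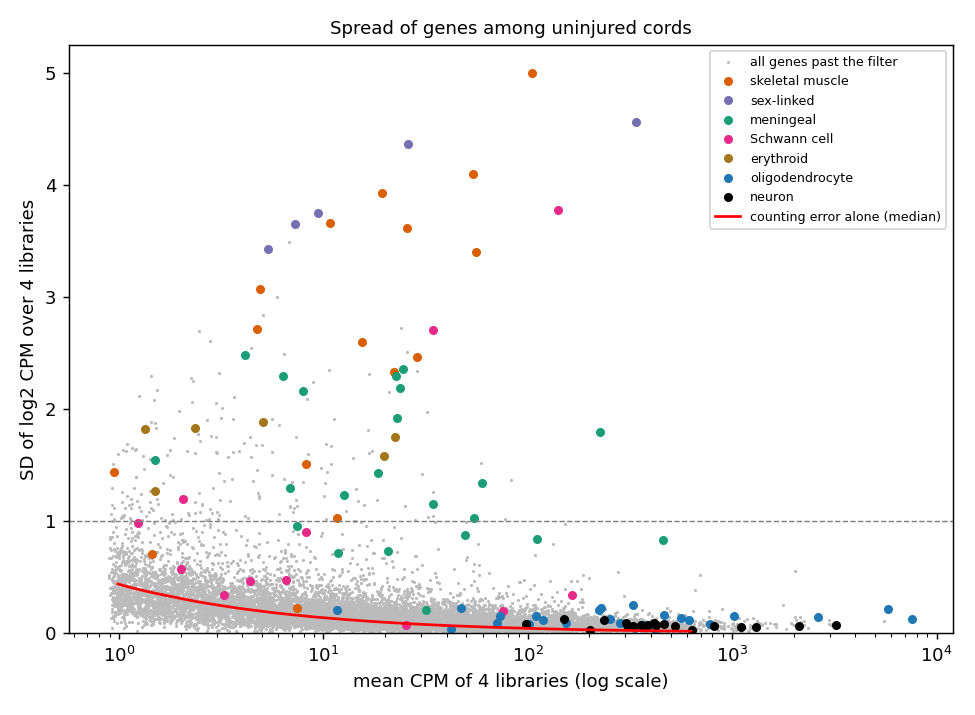
Each grey point is 1 of 15797 genes, placed by its mean CPM (log axis) and by the SD of its log2 CPM over the 4 uninjured libraries, and members of 7 lists are coloured. The red line is the median SD that counting error alone gives and the dashed line marks an SD of 1; most skeletal muscle and meningeal genes (15 of 22) and 3 of 12 Schwann cell genes stand above it, while neuronal and oligodendrocyte genes stay below.

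Few patterns held most of the 231 genes. In 154 of them library 467 was under 0.5 times each of the other 3 libraries, and in 16 it was over 2 times each of them. In 55 genes, libraries 377 and 385 were both above 376 and 467 by any margin, the order of the skeletal muscle genes. Of the 55, 14 were in the skeletal muscle list and 37 in no list. With no fold limit, the 55 include genes mainly low in 467, such as Lbp (7.40, 7.53, 7.69 and 1.59 CPM). The share of all genes in this order was not counted. Library 376 was over 2 times each other library in 22 genes and under 0.5 times each in 23, and 13 genes had none of these patterns. Counted apart from these patterns, library 377 was over 2 times each other library in 48 genes. A gene may be counted in more than 1 pattern. The first principal component, with 58.0% of the variance, set library 467 apart from the other 3. The second, with 30.3%, set 376 apart from 377 and 385.

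**Figure D4:**
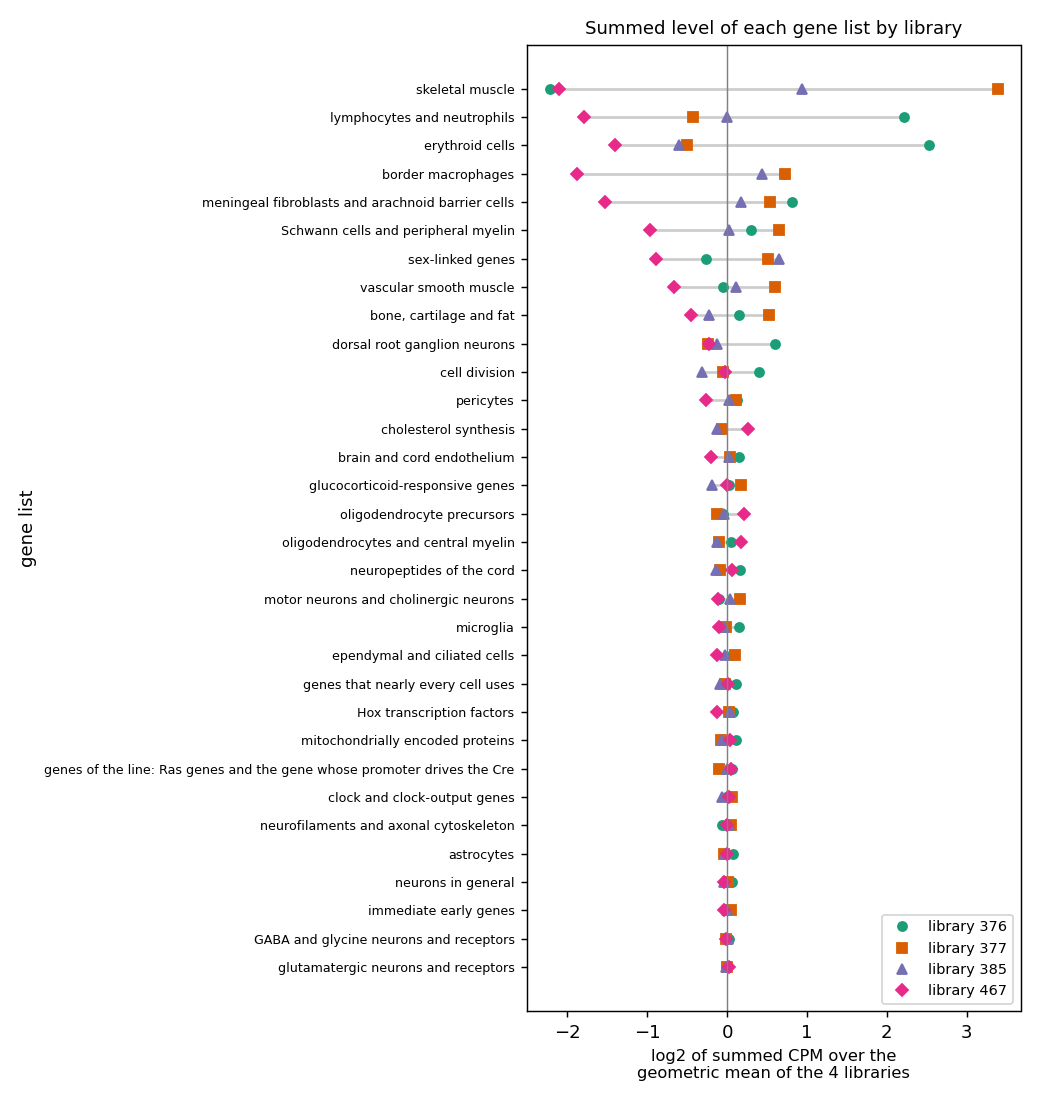
Each row is 1 gene list and each symbol 1 uninjured library, placed by the log2 of the list's summed CPM over the geometric mean of the 4 libraries, with rows ordered by range. Skeletal muscle spreads most (up to 1228 CPM, in library 377), blood cell lists are high in library 376, and meningeal, Schwann cell and border macrophage lists are low in library 467.

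Skeletal muscle transcripts were abundant in library 377, present in 385 and near 0 in the other 2. The 18 listed genes summed to 1228 CPM in library 377, 224 in 385, 27.1 in 467 and 25.04 in 376. Myh4, the myosin heavy chain of fast fibres and the most variable gene of all, had 0.11, 355, 65.5 and 0.44 CPM. Atp2a1, the calcium pump of the sarcoplasmic reticulum, had 0.46, 186, 28.2 and 0.44. Ckm, the muscle creatine kinase, had 0.11, 66.7, 10.7 and 0.088. Libraries 377 and 385 did not overlap the other 2 for these genes. Across the 14 variable members the level in 377 was 2.71 times (Eno3) to 6.87 times (Ttn) that in 385, with a median of 5.57. Acta1, the actin of muscle fibres, had 1.59, 186, 32.6 and 1.23 CPM, and Tnnt3 and Tnni2, of the troponin complex, 85.7 and 36.8 CPM in library 377. Myh7, the slow myosin, stood apart from the others with 9.11, 7.53, 6.64 and 6.44 CPM. Also in the same order were genes outside the list such as Xirp2, Cacna1s, Tcap, Trdn and Myoz1, with 21.8, 20.3, 16.7, 8.04 and 9.41 CPM in library 377. Tnnc2 was listed at 103 FPKM in 377 but had no count in any library.

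The muscle genes moved together, and the 120 bases before the RefSeq transcription start (build GRCm38.p6) of 3 of them are shown, read in the direction of the gene. Capitals mark 2 motifs searched on both strands: TATAAA, a form of the TATA box, and CANNTG, the E-box core, which reads the same on both strands and which the muscle regulators of the MyoD family bind.
Myh4 (chr11:67237692-67237811, plus strand): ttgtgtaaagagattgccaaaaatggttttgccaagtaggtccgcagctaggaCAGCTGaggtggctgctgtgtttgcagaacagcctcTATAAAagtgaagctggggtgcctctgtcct
Atp2a1 (chr7:126463074-126463193, minus strand): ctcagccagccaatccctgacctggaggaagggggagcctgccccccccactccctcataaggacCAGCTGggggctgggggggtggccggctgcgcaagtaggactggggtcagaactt
Ckm (chr7:19410974-19411093, plus strand): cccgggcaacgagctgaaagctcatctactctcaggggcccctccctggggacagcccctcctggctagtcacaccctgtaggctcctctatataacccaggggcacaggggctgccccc
Myh4 held 1 match to each motif, Atp2a1 1 to CANNTG, and the Ckm window held neither run of letters. Of 32851 promoters in the same window, 6.34% held TATAAA and 40.2% CANNTG, so a match in 1 gene is a description of its sequence and no sign of binding.

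Library 467 was low in meningeal transcripts. Meningeal genes summed to 1818, 1510, 1167 and 360 CPM, and 467 was the lowest library for 22 of 22 members, beside 28.3% of all genes read. The level in 467 over the mean of the other 3 had a median of 0.156 in this list, beside 1.00 over all genes read. Slc13a4, a sulphate transporter of meningeal cells, had 40.6, 33.0, 23.2 and 1.06 CPM. Igfbp6 had 36.9, 29.8, 22.5 and 1.06, and the retinoid-binding protein Crabp2 6.71, 6.50, 3.32 and 0. A separation of this kind, with the other 3 libraries all well above 467, was seen for Igf2 (373, 286, 221 and 24.3 CPM), Col1a1 (105, 68.9, 53.5 and 12.3) and Aldh1a2 (34.8, 36.2, 22.3 and 1.32). Cd34, which vessels also express, differed least, at 36.2, 28.9, 34.9 and 26.9 CPM. Library 376 was the highest library for 20 of 22 members, beside 28.8% of all genes read. Of the 154 genes low in 467, 34 were in any list and 15 of these in the meningeal list. Among those outside the lists were Prg4 (59.3, 24.1, 18.4 and 0.88 CPM), a lubricating proteoglycan, and the matrix protein Ogn (45.3, 44.4, 23.8 and 1.32).

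Border macrophage genes and some Schwann cell genes were also low in 467. The median ratio of 467 to the mean of the other 3 was 0.192 for border macrophages and 0.506 for Schwann cells. Library 467 was the lowest for 6 of 6 and 11 of 12 members, beside 28.3% of all genes read. Library 377 was the highest for 10 of 12 Schwann cell members, beside 21.8% of all genes read. Prx, periaxin of the Schwann cell, had 41.7, 62.7, 31.8 and 0.88 CPM. Library 377 was the highest and 467 was far below the other 3. Egr2, the transcription factor of myelinating Schwann cells, had 2.39, 3.25, 2.18 and 0.35 CPM. Cdh19, of the neural crest lineage, did not vary (23.8, 27.1, 25.1 and 25.5 CPM), with an SD of 0.08 on the log2 scale. The border macrophage genes summed to 44.0, 44.4, 36.3 and 7.32 CPM. Mrc1, the mannose receptor, had 10.5, 10.1, 9.87 and 1.41, and Lyve1, a hyaluronan receptor, 4.55, 3.68, 3.49 and 0.18. Cd74, the invariant chain of antigen presentation, followed with 26.7, 42.7, 22.5 and 1.94 CPM (named after its values were seen). Microglial genes summed to 755, 674, 664 and 635 CPM, a spread of 1.19 times against 6.07 times for border macrophages.

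The promoter windows of a meningeal and a Schwann cell gene of this group are given for comparison with the muscle genes, with the same build, length and motifs.
Slc13a4 (chr6:35308127-35308246, minus strand): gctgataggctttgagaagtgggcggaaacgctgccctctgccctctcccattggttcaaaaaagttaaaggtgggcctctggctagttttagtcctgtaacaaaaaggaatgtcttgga
Prx (chr7:27499204-27499323, plus strand): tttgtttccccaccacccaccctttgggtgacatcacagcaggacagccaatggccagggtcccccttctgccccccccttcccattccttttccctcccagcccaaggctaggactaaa
Neither window held TATAAA or CANNTG.

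Sex-linked genes set the same library apart. The Y-linked genes Ddx3y, Eif2s3y, Kdm5d and Uty had 103, 37.4, 29.1 and 21.4 CPM in library 467 and at most 0.11 CPM in the other 3. Xist, the RNA of the inactive X chromosome, had 297, 506, 556 and 0.62 CPM. The levels of these 5 genes in library 467 are those of a male and in the other 3 those of females. With 1 such library, sex and whatever else sets 467 apart cannot be told apart in these 4 cords.

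Oligodendrocyte and sterol genes were higher in library 467. Cholesterol synthesis genes, whose product myelin needs in large amounts, summed to 1254, 1257, 1209 and 1578 CPM, and 467 was the highest library for 14 of 14 members with counts. Sqle, squalene epoxidase, had 118, 116, 108 and 158 CPM. Lss, lanosterol synthase, had 60.9, 67.1, 58.7 and 97.5. For these genes the other 3 libraries lay close together and 467 above them. Their ratio in 467 to the mean of the other 3 had a median of 1.31 and was highest for Lss (1.57). Hmgcs1 was listed at 0 in both tables. Oligodendrocyte genes summed to 23688, 21429, 20883 and 25928 CPM, with 467 the highest for 19 of 26, beside 28.1% of all genes, and the lowest for none, at a median ratio of 1.14. Neuronal genes had a median ratio of 0.98 and astrocyte genes of 0.99. Meningeal and Schwann cell genes were lowest in the same library, and their part in these differences was not tested.

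Of the 27 Hox genes read, library 467 was the lowest for 8 and the highest for 6, near the shares over all genes (28.3% and 28.1%). A few members, named here for their spread, differed more. Hoxc8 had 189, 185, 181 and 97.4 CPM, Hoxc6 39.9, 41.7, 44.1 and 27.4, and Hoxc5 7.85, 8.98, 9.35 and 3.88. Library 467 was thus below the other 3, which lay close together, for each of these. Hoxa9 had 12.1, 17.1, 15.9 and 38.6 CPM, Hoxc10 2.28, 2.14, 2.18 and 9.96 and Hoxa10 1.82, 2.48, 1.75 and 3.70, with 467 above the other 3. Hoxc10 was the 1 Hox gene with an SD over 1. Paralogs 9 and 10 summed to 137, 148, 136 and 159 CPM and paralogs 4 to 8 to 702, 654, 675 and 559. Hoxb5 (42.5, 39.3, 42.0 and 40.6) and Hoxb4 (11.8, 12.9, 12.8 and 12.3) showed no such split, and of paralogs 9 and 10, Hoxb9 (92.4, 98.7, 90.9 and 77.0) and Hoxd9 (7.85, 8.90, 6.64 and 7.41) were highest in 377. The cord level at which each segment was cut is not in the labels and its part was not tested.

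**Figure D5:**
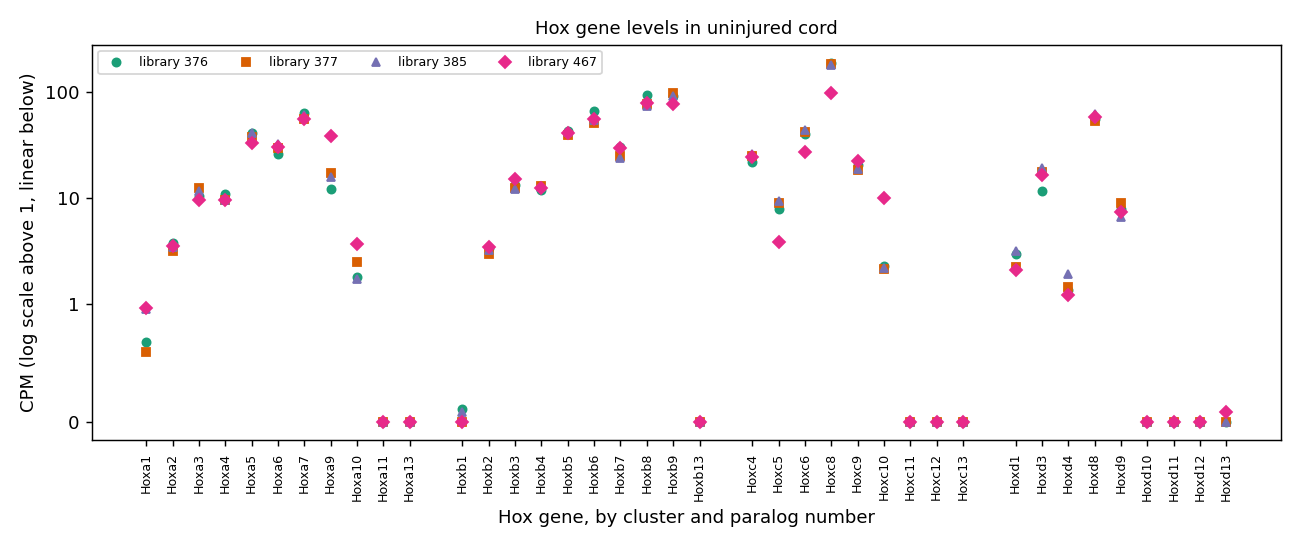
Each column is 1 Hox gene, ordered by cluster and paralog number, and each symbol its CPM in 1 of the 4 uninjured libraries; the axis is logarithmic above 1 and linear below. Library 467 lies above the other 3 for Hoxa9 and Hoxc10 (9.96 against 2.14 to 2.28 CPM) and below them for Hoxc5, Hoxc6 and Hoxc8 (97.4 against 181 to 189 CPM).

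Blood cell transcripts were high in library 376. Erythroid genes summed to 163, 19.9, 18.6 and 10.7 CPM. The globin genes Hbb-b1 and Hba-a2 had 69.4, 8.73, 6.90 and 4.32 CPM, and 58.6, 7.87, 7.60 and 4.94; globin copies are near-identical, so reads may be split between them. Alas2, the heme synthesis enzyme of red cell precursors, had 3.64, 0.43, 1.49 and 0.44. Neutrophil genes followed, with S100a9 at 23.9, 4.02, 4.37 and 1.76 CPM and Ngp, a protein of neutrophil granules, at 22.1, 2.74, 3.41 and 1.06. Camp, an antimicrobial peptide, had 10.02, 1.11, 0.61 and 0.18 CPM. Library 376 stood above the other 3 for all these genes. The lymphocyte gene Cd3e had at most 0.26 CPM. Bglap, osteocalcin of bone-forming cells, had 3.41, 0, 0.17 and 0 CPM. Its list, of bone, cartilage and fat, did not follow it and summed to 40.4, 52.5, 31.2 and 26.5 CPM. Of the 7 members of that list past the filter, 376 was the highest library for 1 and the lowest for 4. Mki67, a marker of dividing cells, had 7.06, 1.63, 2.53 and 2.03 CPM. It was the extreme of the 7 cell division genes past the filter. Their ratio of 376 to the mean of the other 3 had a median of 1.49, from 1.02 (Mcm5) to 3.42 (Mki67). Meningeal genes were also highest in 376, and library 376 was the shallowest.

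Long non-coding RNAs were lower in library 376. Meg3, an imprinted nuclear RNA of neurons, had 1085, 2224, 2281 and 2526 CPM. Malat1, a nuclear RNA of most cells, had 429, 669, 751 and 767. Library 376 was below the other 3 for both, which were named after their values were seen. Of 450 long non-coding and other genes past the filter, 217 (48.2%) were lowest in library 376, beside 27.9% of all 15797 genes. The median log2 difference of 376 from the mean of the other 3 was -0.20 for this class and 0.01 over all genes. Other classes went the same way. Of 23 small RNA genes, 11 (47.8%) were lowest in 376, with a median of -0.18. Of 491 genes not in the reference, 184 (37.5%) were, with a median of -0.08. In the other direction, ribosomal protein genes differed by 0.10, mitochondrial genes by 0.14 and pseudogenes by 0.07. The depth of library 376 was the lowest and its part in this was not tested.

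A few more variable genes are given here, and some of them also fall in the patterns counted above. Pttg1, securin of the mitotic spindle, had 13.4, 0.60, 2.01 and 26.7 CPM, with 376 and 467 well above 377 and 385. Rps2-ps13, a pseudogene, had 50.8, 36.0, 7.86 and 0.62 CPM. Rpl15-ps2, a pseudogene by its name but without a class in the reference, had 8.65, 8.73, 8.21 and 0.088. Both belong to the 154 genes low in 467. These share sequence with their parent genes, so reads may be split between them. The brown fat protein Ucp1 had 0, 9.07, 1.66 and 1.59 CPM, and Fabp4, of fat and vessels, 5.01, 11.3, 2.71 and 2.29. Ucp1 and Fabp4 were highest in library 377, which was also highest for skeletal muscle. Ucp1 is counted among the 55 genes in the order of the skeletal muscle genes, and Fabp4 is not.

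The excitatory and inhibitory lists varied least in summed CPM. Summed CPM of the excitatory list was 1363, 1367, 1363 and 1400, a range of 1.03 times, and that of the inhibitory list was 2767, 2686, 2730 and 2681. The neuron list ranged over 1.07 times, the astrocyte list over 1.08 and the axonal list over 1.08. Other neuronal lists ranged more, over 1.21 times for cholinergic genes, 1.23 for neuropeptides and 1.79 for dorsal root ganglion genes. Immediate early genes ranged over 1.06 times (251, 260, 252 and 247 CPM) and clock genes over 1.09. Their median SDs were 0.14 and 0.12, near that of all genes (0.118). Meninges (5.05 times), border macrophages (6.07), erythroid genes (15.3), neutrophil and lymphocyte genes (16.0) and skeletal muscle (49.0) lay at the other end.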

How the data were processed

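Total RNA was extracted with an RNeasy kit per the labels' protocols. Per the submitters' processing notes, TopHat, Picard, Cufflinks and HTSeq were used on build mm9; not given in the sources used here: which step each tool did, its version, the strand setting and the treatment of multiply mapped reads. The authors deposited raw counts for 37991 gene identifiers and FPKM for 37818 of them. For 18 identifiers FPKM entries were summed. Gene classes and exon lengths came from GENCODE M21 on GRCm38, with no coordinates of the files used.

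Counts were scaled by TMM in edgeR 4.0.16 (R 4.3.3), and log2 CPM used a prior count of 2. Genes with a mean of at least 10 counts were read for spread, and the method was tested on simulated data. Without molecular identifiers, stated floors reflect sampling of reads only. The labels do not state whether libraries came from separate animals beyond the group size.

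The 32 gene lists, with 476 of 477 genes matched, and the choice to describe the uninjured libraries were made with earlier results of these data known. Genes named were the 25 highest by mean FPKM with at least 200 counts in total, the 25 most variable, the 10 most variable apart from muscle and sex-linked genes, and of each list the 4 highest, the lowest, the most variable and members at 0; any other gene was named after its values were seen, and some genes that the rule takes are not reported here. DESeq2 1.42.0 size factors, library totals, other filters and leaving out each library served as alternatives.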

Additional observations from a re-analysis of the deposited data

Results flagged for a closer look

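Of 96 values compared among the 4 libraries, 22 had 1 library whose gap to the nearest of the others was large against the whole range, above the Dixon limit for 4 samples. Chance gives such a gap in about 1 of 20 groups of a value chosen without regard to its spread. That rate does not hold for 12 of the 22, which are single genes chosen for the largest SD among these same libraries. It is not known to hold for the list sums either, since the lists were made with earlier results of these data known. Some values also overlap, such as the skeletal muscle sum and its own members. In library 376 the high values were the summed CPM of erythroid genes (163), of lymphocyte and neutrophil genes (85.9) and of dorsal root ganglion genes (7.97) and the share of summed FPKM in small RNA genes (3.26%), and the low value was its total of 8868865 counts. In library 377 the high values were the summed CPM of skeletal muscle genes (1228) and, in CPM, Atp2a1 (186), Ckm (66.7), Tnni2 (36.8), Acta1 (186), Cacna1s (20.3), Tcap (16.7) and Myl1 (16.3). In library 467 the high values were the summed CPM of excitatory (1400) and cholesterol synthesis genes (1578) and, in CPM, Ddx3y (103), Eif2s3y (37.4), Kdm5d (29.1) and Uty (21.4). Its low values were 15080 genes at 1 FPKM or more and 0.0882 CPM of Rpl15-ps2. In library 385 the share of summed FPKM in pseudogenes was low (10.4%).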

How the results depend on the processing

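Of 260 alternative values for the main results, 233 stayed within the spread of the libraries or within 1.5 times the count, and 27 moved. The share of the 50 highest genes, 15.5%, was 12.7% with at least 200 counts and 10.2% of raw counts, and leaving out each library gave 14.6% to 15.9%. Genes with an SD over 1 numbered 101 with at least 50 counts, 383 with no filter, 78 on log2(FPKM + 1), 213 without the skeletal muscle and sex-linked lists (added after seeing the data) and 108 (without 467) to 292 (without 385) when each library was left out. The common coefficient of variation then ran from 0.0814 (without 467) to 0.140 (without 385). List medians moved with members under 1 FPKM left out, to 6.37 (ependyma), 6.60 (lymphocytes and neutrophils), 30.2 (erythroid), 24.8 (excitatory), 13.8 (neuropeptides), 6.02 (smooth muscle), 6.53 (Schwann cells), 1.29 (dorsal root ganglion), 2.93 (bone, cartilage and fat), 9.97 (Hox), 6.69 (immediate early) and 1.65 (cell division). The bone, cartilage and fat median was 0.619 as a geometric mean with 0.1 added, and the sex-linked median 1.12 with 1 added and 0.302 with 0.1. Leaving out each library gave medians of 3.39 to 4.69 for ependyma, 0.473 to 1.24 for bone, cartilage and fat, 0.0124 to 6.15 for sex-linked genes and 13.9 to 15.6 for clock genes. No paired analysis was possible because there is 1 group with no contrast and each library has its own number. The causes were not tested. Genes at few counts are limited by depth.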
